A study of Mus musculus with 19 samples.

Results

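Transcripts of 10 genes that encode subunits of the Polycomb repressive complexes were followed in cultured embryonic stem cells of the mouse, with Trim71, Lin28a, both or neither deleted. The genes were Ezh1, Ezh2, Eed, Suz12, Jarid2, Mtf2, Phf19, Cbx7, Rnf2 and Scml2. They were taken by name from a table of 21685 genes, and all 10 were present. Each of the 10 passed the filter on low values, which kept 14988 genes for testing. The rows were taken by symbol and no cutoff was applied, but the set was chosen with earlier results of these libraries known, so the differences between the 4 genotypes count as the values it was selected on. The p-values below describe the fit and lend no independent support to a pattern among these genes.

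The cells were male C57BL/6 embryonic stem cells kept in serum with leukaemia inhibitory factor and sorted with magnetic beads for SSEA-1, a surface antigen of undifferentiated mouse cells. In each of the 4 genotype names the state of Trim71 comes before that of Lin28a: WT-WT cells were Trim fl/fl and Lin28a fl/fl, and KO-WT cells were Trim-/- and Lin28a fl/fl. WT-KO cells were Trim fl/fl and Lin28a-/-, and KO-KO cells were Trim-/- and Lin28a-/-. The intact cells of both genes thus carried floxed and not wild-type alleles. Trim71, an RNA-binding ubiquitin ligase, was deleted with 500 nM 4-hydroxytamoxifen for 2 days, and culture went on for at least 7 days before harvest. Exposure to the drug therefore goes with Trim71 loss and cannot be told apart from it. LIN28A binds RNA and holds back the processing of let-7 microRNA precursors. The Lin28a-intact cells were clones 1 and E3 and the Lin28a-null cells clones 1-4 and C1, so Lin28a genotype and clone cannot be told apart.

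KO-WT replicate 5 held the average of its 4 companion libraries and was left out, after which 18 independent libraries remained: 4 WT-WT, 4 KO-WT, 5 WT-KO and 5 KO-KO. Clones 1 and 1-4 then held KO-WT replicate 4 as their only KO-WT library. In fits of these clones alone, every comparison with KO-WT rests on that library, and a lost call or changed sign there is not read as a difference between clones. No label says that libraries of a genotype came from separate derivations beyond the clone and the harvest day, so p-values measure the spread between these libraries. All expression values are log2 units as deposited, with day effects already removed; the read depth is unknown. Trim71 ran from 10.04 to 10.996 in the Trim71-intact libraries and from 8.77 to 9.55 in the Trim71-null ones. Lin28a ran from 9.74 to 10.26 where intact and from 8.21 to 8.57 where deleted, so both targeted transcripts matched their labels and remained measurable. In the libraries of harvest day 4 the deviation of 14724 genes from their genotype mean followed transcript GC content, with rank correlations of -0.39 in WT-WT replicate 3, 0.48 in KO-WT replicate 3, -0.46 in WT-KO replicate 4 and 0.35 in KO-KO replicate 4. Where leaving out day 4 changed a call of the 10 genes, the value without it is given.

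Polycomb proteins keep developmental genes silent through marks on histones. Polycomb repressive complex 2 (PRC2) methylates histone H3 at the site called H3K27 through EZH2 or EZH1, which need EED and SUZ12, while accessory subunits such as JARID2, MTF2 and PHF19 guide the complex to chromatin. Polycomb repressive complex 1 (PRC1) ubiquitinates histone H2A through RNF2 (also called RING1B) or RING1, and in its canonical form a CBX protein, mostly CBX7 in embryonic stem cells, reads the PRC2 mark. Mouse embryonic stem cells can self-renew without PRC2, but they then fail to carry differentiation through properly.

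The microRNA let-7, which Lin28a restrains, is known to target Ezh2 in several cell types, so the seed match was looked up in the 3′ untranslated regions of GENCODE M21. The mature sequence, from RefSeq (GRCm38.p6, chr13:48538239-48538260, minus strand), is shown with its seed, bases 2 to 8, in capitals, above the matching stretch of Ezh2 (GRCm38, chr6:47530518-47530540, minus strand) with the bases that pair with the seed in capitals.
mmu-let-7a-5p: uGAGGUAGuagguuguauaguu
Ezh2 3′ untranslated region: catctaCTACCTCttccccttct
The match begins at base 7 of the 402-base untranslated region. Ezh2 was the only 1 of the 10 genes with this match, CTACCTC, on the transcript strand. Among 12577 tested genes with an annotated 3′ untranslated region, 1323 held one (10.5%), as did 7 of the 43 other Polycomb genes: Lcorl, Cbx2, Phc3, Pcgf3, E2f6, Asxl2 and Foxk1. The match is a description and was not linked to any change.

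The promoters of all 10 genes were found in RefSeq (GRCm38.p6), and the 250 bases upstream of each start were searched on both strands for 3 motifs. They were an E2F motif (TTTGGCGC, TTTCCCGC, TTTGCCGC or TTTCGCGC), an E-box (CACGTG) and the core of an NRF1 motif (CGCATGCG). The E2F motif occurred in Phf19 and Suz12, against 1.86% of 32851 promoters. Neither other motif occurred in any of the 10 genes, against 6.02% and 1.55% of promoters. The Suz12 promoter (chr11:79992856-79993105, plus strand) and the Phf19 promoter (chr2:34913977-34914226, minus strand) are shown with the motif in capitals, which in Phf19 lies on the opposite strand. The promoter of Scml2 (chrX:161162500-161162749, plus strand), the gene with the largest differences below, held none of the motifs and is shown for contrast.
Suz12 promoter: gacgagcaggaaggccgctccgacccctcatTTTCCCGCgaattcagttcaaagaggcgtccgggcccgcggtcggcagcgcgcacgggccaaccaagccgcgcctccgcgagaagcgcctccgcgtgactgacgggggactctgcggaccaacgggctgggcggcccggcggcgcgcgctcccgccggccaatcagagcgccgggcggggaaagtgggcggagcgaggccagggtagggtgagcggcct
Phf19 promoter: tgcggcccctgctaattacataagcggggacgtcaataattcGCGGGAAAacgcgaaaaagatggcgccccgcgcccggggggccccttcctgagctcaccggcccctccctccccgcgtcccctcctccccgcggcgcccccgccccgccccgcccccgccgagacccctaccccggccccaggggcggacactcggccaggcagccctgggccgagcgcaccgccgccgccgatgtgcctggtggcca
Scml2 promoter: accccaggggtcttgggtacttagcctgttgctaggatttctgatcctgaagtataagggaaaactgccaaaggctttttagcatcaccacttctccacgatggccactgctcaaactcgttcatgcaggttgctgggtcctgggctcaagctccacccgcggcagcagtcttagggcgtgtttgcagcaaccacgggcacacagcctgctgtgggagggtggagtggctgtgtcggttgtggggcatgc
The dinucleotide CG occurred 37 times in the Suz12 window, 31 times in that of Phf19 and 7 times in that of Scml2, against a median of 6 over all promoters.

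Per kilobase of transcript, the WT-WT means of the 10 genes spanned from 10.42 for Suz12 to 3.60 for Scml2 on the log2 scale. Genes for PRC2 subunits other than the methyltransferases held the top places: Suz12 was followed by Mtf2 at 9.67, Jarid2 at 9.43 and Eed at 9.37. Cbx7 stood at 9.14, Ezh2 at 8.90 and Rnf2 at 8.14, and Ezh1, the second methyltransferase, at 7.10. Phf19 stood at 5.68, next to last. Jarid2 and Eed were 0.06 apart, less than the SD of Eed (0.069), while each other pair of neighbours in this order was further apart than the SDs of both genes. Transcript lengths are those of 1 GENCODE transcript a gene, and the isoform used in these cells was not measured.

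**Figure D1:**
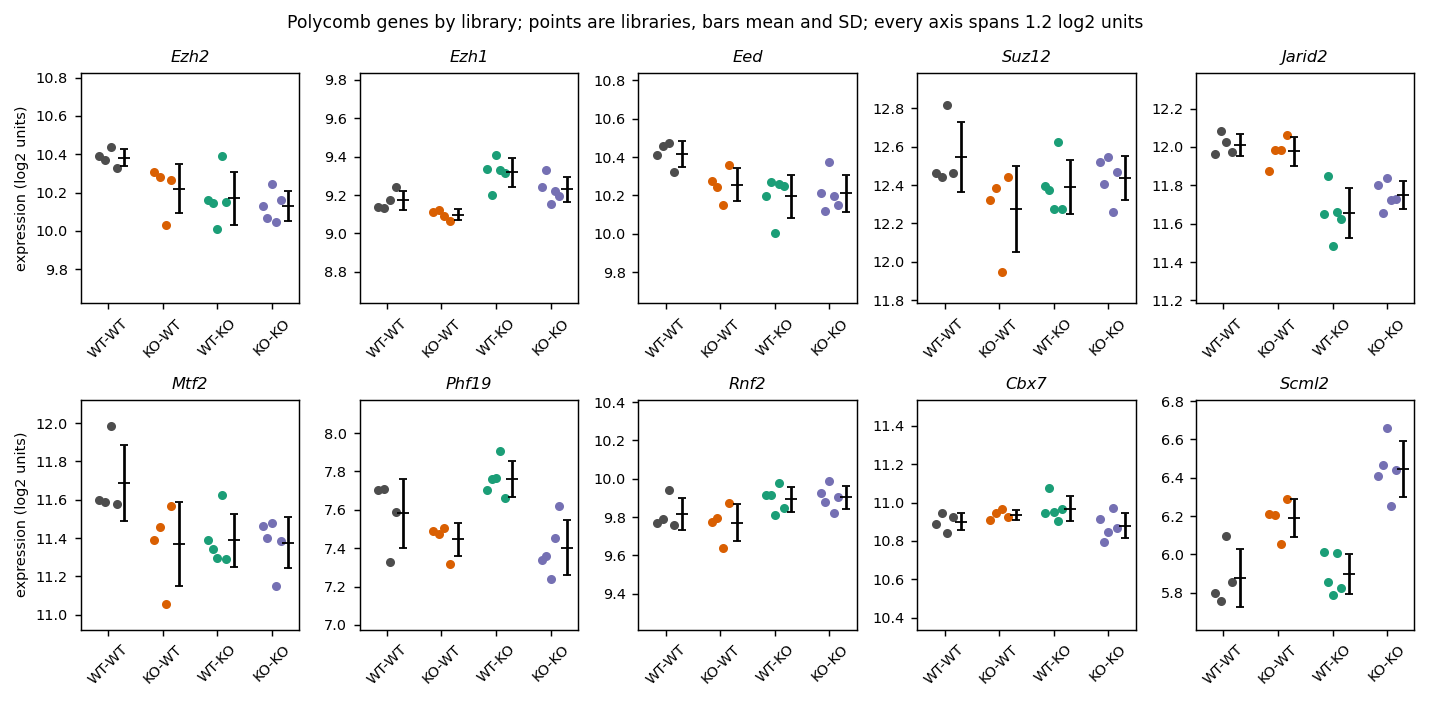
Expression (vertical axis, deposited log2 units) of the 10 Polycomb genes in the 18 libraries by genotype (horizontal axis), 1 point a library, with the mean and SD as bars and the same axis span in each panel. Jarid2 lies between 11.87 and 12.08 in the Lin28a-intact libraries and between 11.49 and 11.85 in the Lin28a-null ones, and Scml2 is highest in KO-KO.

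Ezh2, the main H3K27 methyltransferase of proliferating cells, was lower in WT-KO and in KO-KO than in WT-WT. Its level was 10.39, 10.37, 10.44 and 10.33 in WT-WT, and 10.16, 10.15, 10.01, 10.39 and 10.15 in WT-KO. In KO-WT it was 10.31, 10.28, 10.03 and 10.26, and in KO-KO it was 10.13, 10.07, 10.24, 10.05 and 10.16. All 4 WT-WT libraries lay above every KO-WT and KO-KO library, and 1 WT-KO library, replicate 4 of day 4, reached the WT-WT range. WT-KO against WT-WT gave -0.21 ± 0.074 (SE; adjusted p = 0.0298, lower in 4 of 4 same-day pairs). KO-KO against WT-WT gave -0.25 ± 0.074 (adjusted p = 0.011, 4 of 4 pairs). KO-KO against KO-WT gave -0.09 ± 0.074 (adjusted p = 0.338), which was not called, although it was without day 4 (-0.14, adjusted p = 0.0399) or without KO-WT replicate 3 of that day (-0.18, adjusted p = 0.047). Trim71 loss with Lin28a intact gave -0.16 ± 0.080 (adjusted p = 0.191, lower in 3 of 3 pairs), and without day 4 this was -0.07 (adjusted p = 0.511). The call with Trim71 intact was lost once the GC and length trend was taken out (-0.11, adjusted p = 0.105) and without WT-WT replicate 1, 2 or 3 or WT-KO replicate 1, 3 or 5, where it ran down to -0.15 at adjusted p-values of up to 0.104. In clones E3 and C1 alone that call was lost (-0.23, adjusted p = 0.237), while in clones 1 and 1-4 it held (-0.21, adjusted p = 0.0107). The call for loss of both was lost in E3 and C1 too, and both calls on the 3 days with all 4 genotypes.

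Ezh1, which encodes the less active methyltransferase, went the other way. Its range was 9.13 to 9.24 in WT-WT, 9.06 to 9.12 in KO-WT, 9.20 to 9.41 in WT-KO and 9.15 to 9.33 in KO-KO. Every KO-KO library lay above every KO-WT library. Ezh1 rose by 0.15 ± 0.051 when Lin28a was lost from Trim71-intact cells (adjusted p = 0.0286). On the Trim71-null background the rise was 0.13 ± 0.051 (adjusted p = 0.0452), and both held in 4 of 4 pairs. The first call was lost without WT-WT replicate 1, 2 or 3 or WT-KO replicate 1, 3, 4 or 5, at adjusted p-values of up to 0.0937, without day 4 (0.14, adjusted p = 0.0655) and in each pair of clones alone (adjusted p = 0.235 and 0.0999). The second was lost in 14 of the 18 fits that left out 1 library, all but those without WT-WT replicate 3, WT-KO replicate 2 or 3 or KO-KO replicate 3, at adjusted p-values of up to 0.182, and under 8 of 13 other settings. These were no filter on low values, 75th percentile scaling, the untrended prior, each pair of clones, the 3 days with all 4 genotypes, the compared genotypes alone and the fit without day 4 (0.13, adjusted p = 0.0913).

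Eed, whose product binds the trimethyl mark and stimulates the enzyme, fell after Lin28a loss with Trim71 intact. WT-WT libraries stood at 10.41, 10.46, 10.47 and 10.32, and WT-KO libraries at 10.20, 10.27, 10.003, 10.26 and 10.25, all below WT-WT. KO-WT libraries were at 10.27, 10.24, 10.15 and 10.36, and KO-KO libraries at 10.21, 10.12, 10.37, 10.20 and 10.15, and both groups reached into the WT-WT range. The difference was -0.22 ± 0.067 with Trim71 intact (adjusted p = 0.0152). KO-KO against WT-WT gave -0.20 ± 0.067 (adjusted p = 0.0209), lower in 4 of 4 pairs each. In Trim71-null cells it was -0.04 (95% interval -0.19 to 0.10). With the GC and length trend removed, the calls were lost at -0.14 (adjusted p = 0.0761) and -0.11 (adjusted p = 0.139), and they were lost without WT-WT replicate 2 or 3, or without WT-KO replicate 3 (the first) or KO-KO replicate 5 (the second), at adjusted p-values of up to 0.0543 and 0.0696. Without day 4 the first held (-0.21, adjusted p = 0.0301) and the second was lost (-0.18, adjusted p = 0.0619). The first was also lost in each pair of clones alone (adjusted p = 0.0761 in E3 and C1, 0.0617 in 1 and 1-4). The second was lost in E3 and C1, and both were lost on the 3 days with all 4 genotypes.

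Suz12, the scaffold subunit on which PRC2 is built, passed the test in none of the comparisons, and its libraries varied more than those of Ezh1, Ezh2 or Eed. It stood at 12.46, 12.44, 12.82 and 12.46 in WT-WT and at 12.32, 12.39, 11.95 and 12.44 in KO-WT. The highest WT-WT and the lowest KO-WT library were both from day 4. In WT-KO it was 12.39, 12.38, 12.28, 12.62 and 12.28, and in KO-KO 12.52, 12.41, 12.54, 12.26 and 12.47. The difference for Trim71 loss with Lin28a intact was -0.27 ± 0.118 (adjusted p = 0.138), and without day 4 it was -0.05 (adjusted p = 0.631). Without day 4, the difference for Trim71 loss in Lin28a-null cells passed the test at 0.15 (adjusted p = 0.0402), against 0.05 with it (95% interval -0.17 to 0.26). When the 2 compared genotypes alone were fitted, Lin28a loss was called at -0.15 with Trim71 intact (adjusted p = 0.0094, against 0.265) and at 0.14 in Trim71-null cells (adjusted p = 0.0469, against 0.24).

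Jarid2 encodes an accessory subunit that helps to bring PRC2 to its targets, and it fell after Lin28a loss with and without Trim71. WT-WT libraries stood at 11.96, 12.08, 12.02 and 11.97, and KO-WT libraries at 11.87, 11.99, 11.98 and 12.06. WT-KO libraries stood at 11.65, 11.85, 11.49, 11.66 and 11.63, and KO-KO libraries at 11.80, 11.65, 11.84, 11.72 and 11.73. Thus no Lin28a-null library reached the lowest Lin28a-intact one. Jarid2 fell by 0.36 ± 0.065 on the log2 scale after Lin28a loss with Trim71 intact at an adjusted p of 0.000409. KO-KO against KO-WT gave -0.23 ± 0.065 (adjusted p = 0.01), and both held in 4 of 4 pairs. Loss of both gave -0.26 ± 0.065 (adjusted p = 0.00395). The first call held in 18 of 18 fits that left out 1 library, at adjusted p-values of up to 0.00312, and under all 13 other settings, including each pair of clones alone (-0.39 at an adjusted p of 0.0271 in E3 and C1, -0.33 at 0.000523 in 1 and 1-4). In clones E3 and C1 alone the calls in Trim71-null cells (-0.21, adjusted p = 0.115) and for loss of both (-0.32, adjusted p = 0.0551) were lost. Trim71 loss left Jarid2 at differences of -0.03 with Lin28a intact (95% interval -0.18 to 0.12) and 0.09 without it (-0.03 to 0.22). The latter became a call without WT-KO replicate 2 (0.17, adjusted p = 0.0449).

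Mtf2, a PRC2 subunit that binds unmethylated CG-rich DNA, has the lowest transcript GC content of the 10 genes, at 38.2%, and followed the day 4 libraries most closely. It stood at 11.60, 11.59, 11.99 and 11.58 in WT-WT and at 11.39, 11.46, 11.06 and 11.57 in KO-WT. WT-KO libraries were at 11.39, 11.34, 11.29, 11.62 and 11.29, and KO-KO libraries at 11.46, 11.40, 11.48, 11.15 and 11.39. The highest WT-WT, the highest WT-KO, the lowest KO-WT and the lowest KO-KO library were the 4 libraries of day 4. WT-KO against WT-WT gave -0.30 ± 0.113 for Mtf2 (adjusted p = 0.0418), and KO-KO against WT-WT gave -0.31 ± 0.113 (adjusted p = 0.0332), lower in 4 of 4 pairs each. Without day 4 these were -0.25 (adjusted p = 0.000671) and -0.14 (adjusted p = 0.0205), and without WT-WT replicate 3 alone they were -0.16 (adjusted p = 0.222) and -0.18 (adjusted p = 0.181). The first was lost too without WT-KO replicate 1, 2, 3 or 5, KO-KO replicate 2 or 5 or KO-WT replicate 1, and the second without KO-KO replicate 4 or 5, at adjusted p-values no higher than these. Both calls were lost in clones E3 and C1 alone and on the 3 days with all 4 genotypes (adjusted p = 0.134 and 0.147 for the first). The untrended prior lost the first, and the compared genotypes alone the second. The largest uncalled difference of Mtf2 was -0.32 ± 0.122 for Trim71 loss with Lin28a intact (adjusted p = 0.0965), and it shrank to -0.09 without day 4 and to -0.09 with the GC and length trend removed.

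Phf19, a relative of Mtf2 whose product binds histone H3 methylated at H3K36, fell after Trim71 loss in Lin28a-null cells. WT-KO libraries stood at 7.71, 7.76, 7.77, 7.91 and 7.66, and KO-KO libraries at 7.34, 7.36, 7.24, 7.45 and 7.62, all below WT-KO. WT-WT libraries were at 7.70, 7.71, 7.33 and 7.59, and KO-WT libraries at 7.49, 7.48, 7.50 and 7.32, and these groups overlapped. The difference was -0.36 ± 0.086 without Lin28a (adjusted p = 0.0165, lower in 5 of 5 pairs) and -0.13 ± 0.100 with Lin28a (adjusted p = 0.393). The difference between the effects was -0.23 ± 0.131 (adjusted p = 0.421), so the effects were not shown to differ. Without WT-WT replicate 3 the difference with Lin28a was -0.26 (adjusted p = 0.106) and the gap between the effects -0.10, and without day 4 they were -0.25 (adjusted p = 0.14) and -0.08. The call was lost without WT-KO replicate 4 or KO-KO replicate 1, 2 or 3, at adjusted p-values of up to 0.0613, and in each pair of clones alone (-0.46, adjusted p = 0.0699, and -0.20, adjusted p = 0.335). Loss of both gave -0.18 ± 0.092 (adjusted p = 0.126), which became a call without WT-WT replicate 3 (-0.29, adjusted p = 0.0102), without KO-KO replicate 5 (-0.26, adjusted p = 0.0296) and without day 4 (-0.28, adjusted p = 0.0152).

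Rnf2, the catalytic subunit shared by nearly all PRC1 complexes in these cells, passed no test in the fit with day. It ranged from 9.76 to 9.94 in WT-WT, 9.64 to 9.87 in KO-WT, 9.81 to 9.98 in WT-KO and 9.82 to 9.99 in KO-KO, and the groups overlapped in all 5 comparisons of genotypes. Its GC content was the second lowest, at 39.5%. With the GC and length trend removed, Rnf2 was called higher for Lin28a loss with Trim71 intact (0.21, adjusted p = 3.94e-05, against 0.08 and 0.296), for loss of both (0.23, adjusted p = 1.16e-05, against 0.09 and 0.227) and for Trim71 loss with Lin28a intact (0.15, adjusted p = 0.0138, against -0.04 and 0.676). GC content and length were removed together, so their separate parts were not tested. Without day 4, loss of both was called too (0.16, adjusted p = 0.0129). KO-KO against KO-WT gave 0.13 ± 0.058 (adjusted p = 0.075). That difference was called when KO-KO replicate 4 (0.16, adjusted p = 0.0425) or KO-WT replicate 4 (0.18 at 0.0316) was left out. It was also called when the day term was dropped (adjusted p = 0.0271), but that fit does not count the day effects removed before deposit.

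Cbx7, the chromodomain subunit of canonical PRC1, had the narrowest range of the 10 genes over the 18 libraries. Its ranges were 10.84 to 10.94 in WT-WT, 10.91 to 10.97 in KO-WT, 10.91 to 11.08 in WT-KO and 10.80 to 10.97 in KO-KO, and all 4 overlapped. The 5 differences between genotypes lay between -0.09 and 0.07, and their 95% intervals together ran from -0.18 to 0.17. No comparison called it.

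Scml2, which encodes a sex-comb protein that associates with PRC1, was the least abundant of the 10 transcripts and had the largest differences. WT-WT libraries stood at 5.80, 5.76, 6.09 and 5.86, and WT-KO libraries at 6.01, 5.85, 5.79, 6.01 and 5.83. KO-WT libraries were higher, at 6.21, 6.20, 6.05 and 6.29, and KO-KO libraries were highest, at 6.41, 6.47, 6.66, 6.25 and 6.44. Every KO-KO library lay above every Trim71-intact library, while KO-WT overlapped WT-WT through the day 4 library of each. Scml2 rose by 0.55 ± 0.089 after Trim71 loss in Lin28a-null cells (adjusted p = 0.00144, higher in 5 of 5 pairs). KO-KO exceeded WT-WT by 0.57 ± 0.096 (adjusted p = 0.000201, 4 of 4 pairs). With Lin28a intact the difference for Trim71 loss was 0.31 ± 0.104 (adjusted p = 0.0613, higher in 2 of 3 pairs). Without WT-WT replicate 3 it was 0.42 (adjusted p = 0.0315), without day 4 it was 0.45 (adjusted p = 0.0202), and with the GC and length trend removed 0.49 (adjusted p = 0.00116). The difference between the effects of Trim71 loss was 0.23 ± 0.137 (adjusted p = 0.428). Lin28a loss alone gave 0.02 ± 0.096 with Trim71 intact and 0.25 ± 0.096 in Trim71-null cells (adjusted p = 0.0434), the latter lost without any 1 of WT-WT replicates 1 and 4, KO-WT replicates 1 to 3 and KO-KO replicates 1, 2, 3 and 5, at adjusted p-values of up to 0.157. The calls for Trim71 loss in Lin28a-null cells and for loss of both held in 18 of 18 such fits, and the former was lost in each pair of clones alone (0.57, adjusted p = 0.0722, and 0.50, adjusted p = 0.0556).

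**Figure D2:**
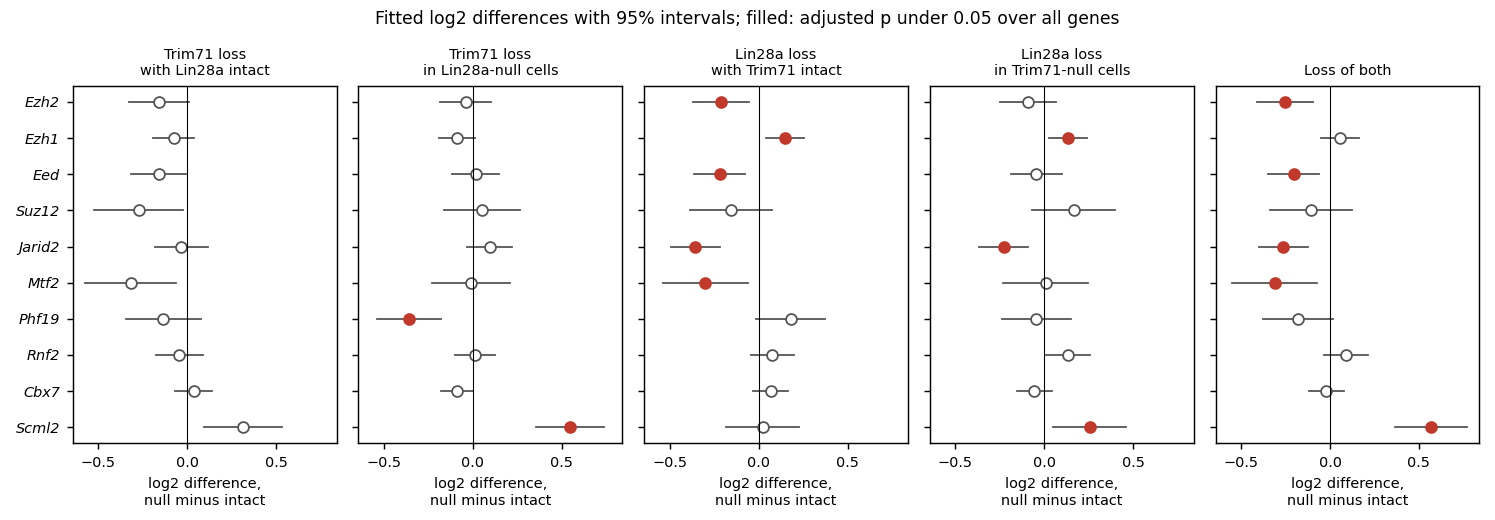
Fitted log2 differences (horizontal axis, genotype named in each panel minus its control) of the 10 genes with 95% intervals, filled where the adjusted p over all tested genes was under 0.05. With Lin28a intact no gene is called for Trim71 loss, Scml2 and Phf19 are called without Lin28a, and Jarid2 is called lower in all 3 panels that include Lin28a loss.

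Set side by side, the 5 comparisons called between 0 and 5 of the 10 genes. Trim71 loss with Lin28a intact called 0 of 10 in the limma fit, against 11.2% of all tested genes. Of the 10, 4 (Mtf2, Suz12, Scml2 and Eed) had an unadjusted p under 0.05. The limma fit without the day term called 2, but it does not count the day effects removed before deposit, so its p-values are too small. Trim71 loss in Lin28a-null cells called 2 of 10, Scml2 higher and Phf19 lower, against a background of 8.38%. Lin28a loss called 5 of 10 with Trim71 intact (background 42.4%) and 3 of 10 in Trim71-null cells (42.8%). Loss of both called 5 of 10, against 45.6%. The shares for Lin28a loss were thus near or below that of genes in general. Without day 4 the counts were 1, 3, 4, 3 and 6 in the same order. The count for Lin28a loss with Trim71 intact was 1 without WT-WT replicate 3 or WT-KO replicate 3, and that gene was Jarid2. No share of all tested genes is given here for these other fits, so their counts are not read as a result about the set. Comparisons share their WT-WT, KO-WT or WT-KO libraries, so their values are not independent of each other.

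By direction, Trim71 loss called 0 of the 10 genes either way with Lin28a intact, where 4.74% of all tested genes were called higher and 6.43% lower. In Lin28a-null cells it called 1 higher and 1 lower, against 4.26% and 4.12%. Lin28a loss with Trim71 intact gave 1 gene higher (Ezh1) and 4 lower (Ezh2, Eed, Jarid2 and Mtf2), while 20.3% of all tested genes were called higher and 22% lower. Loss of both gave 1 higher (Scml2) and the same 4 genes lower, against 21% and 24.6%. In Trim71-null cells, 2 genes were higher (Ezh1 and Scml2) and 1 lower (Jarid2), against 20.8% and 22%. The median difference of the 10 genes was -0.07, -0.14 and -0.02 in these comparisons, and that of all tested genes was between -0.02 and 0.00. The interaction, which asks whether Trim71 loss acted differently with and without Lin28a, called 0 of the 10 genes (0 also at an unadjusted p under 0.05) and 0.02% of all genes in the limma fit. Its largest value among them was 0.32 ± 0.156 for Suz12 (unadjusted p = 0.0553, adjusted p = 0.343), and no other of the 10 had an unadjusted p that low.

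Genes whose libraries did not overlap between genotypes were counted, with the share of all tested genes beside each count. With 10 genes, these counts are not read as a result about the set. For Trim71 loss with Lin28a intact, 0 of the 10 lay wholly above WT-WT and 3 wholly below (Ezh1, Ezh2 and Mtf2), as did 13% and 15.3% of all tested genes. Without Lin28a, Scml2 lay above and Phf19 below, against 6.05% and 6.55%. For Lin28a loss with Trim71 intact 0 lay above and 2 below (Eed and Jarid2), against 20.1% and 20.7%. In Trim71-null cells Ezh1 lay above and Jarid2 below, against 19.8% and 20.8%. Loss of both left Scml2 above and 3 genes below (Ezh2, Jarid2 and Mtf2), against 20.8% and 23.6%.

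**Figure D3:**
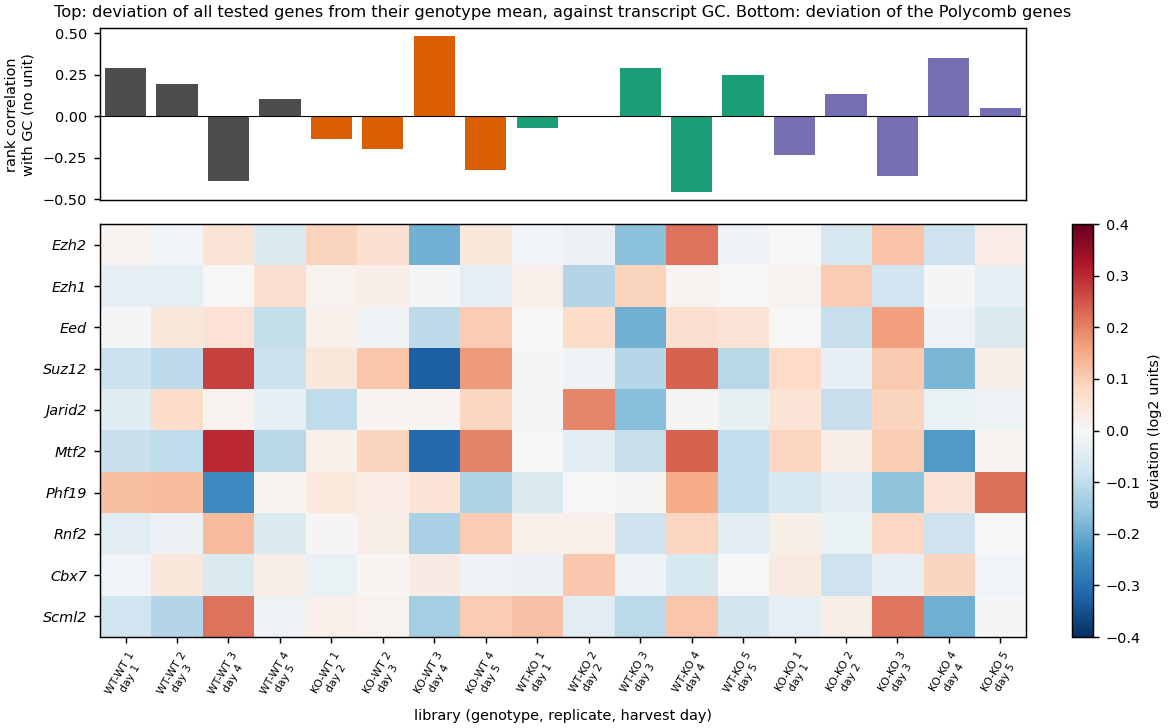
Top, rank correlation between transcript GC content and each gene's deviation from its genotype mean, over 14724 genes, 1 bar a library; bottom, deviation of the 10 Polycomb genes in the same libraries (colour, log2 units). Suz12 and Mtf2 are high in WT-WT replicate 3 and WT-KO replicate 4, where the correlation is negative, and low in KO-WT replicate 3 and KO-KO replicate 4, where it is positive.

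Variation within genotypes was shared among several of the genes. WT-WT replicate 3 held the highest value of its genotype for 6 of the 10 genes, and KO-WT replicate 3, of the same day, the lowest for 6. KO-KO replicate 3, with a GC correlation of -0.36, was highest for 7 of the 10, and WT-KO replicate 3, with one of 0.29, was lowest for 6. Libraries of the same day offset each other here, since day effects had been removed, so these highs and lows are not separate observations. Over all tested genes the difference for Trim71 loss with Lin28a intact followed GC content with a rank correlation of 0.51, whereas Trim71 loss in Lin28a-null cells gave 0.01. For Lin28a loss it was 0.25 with Trim71 intact and -0.10 in Trim71-null cells. The 4 genes of lowest transcript GC content, Mtf2 (38.2%), Rnf2 (39.5%), Scml2 (41.5%) and Suz12 (41.6%), were also the 4 whose differences for Trim71 loss with Lin28a intact moved most when the trend was removed. The trend is fitted on GC content and length, so this order was largely set in advance and is no separate observation.

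By Pearson correlation over the 18 libraries, the genes most like Ezh2 were Mphosph10 (r = 0.964), Phf14 (r = 0.963) and Ggnbp2 (r = 0.962), against a median of 0.07 over all tested genes. The genes most like Cbx7 were Mllt11 (r = 0.879), Cdt1 (r = 0.843) and Mycn (r = 0.826), against a median of -0.02. The libraries share genotype and the day and GC patterns above, and these values describe likeness only.

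The other 43 genes of 4 Polycomb lists, which were written with earlier results of these data known, gave context. All 43 were tested. Lin28a loss with Trim71 intact called 7 of them higher and 12 lower, and in Trim71-null cells it called 8 higher and 11 lower. Of all tested genes, 20.3% and 22% were called higher and lower in the first comparison and 20.8% and 22% in the second. Trim71 loss called 1 higher and 3 lower with Lin28a intact, against 4.74% and 6.43% of all genes, and 4 higher and 3 lower without Lin28a, against 4.26% and 4.12%. Loss of both called 12 higher and 13 lower, against 21% and 24.6%. Without day 4, Trim71 loss with Lin28a intact called 1 of the 43, against 4 with it, and the other comparisons called between 6 and 23, against between 7 and 25. The shares of all tested genes without day 4 are not set beside these counts, which are not read as a result about the 43 genes. The median difference of the 43 genes lay between -0.03 and 0.05 in every comparison.

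Among further PRC2 genes, Rbbp7, a histone-binding subunit, fell in all 5 comparisons. It ranged from 11.56 to 11.62 in WT-WT, 11.35 to 11.48 in KO-WT, 11.15 to 11.29 in WT-KO and 11.05 to 11.12 in KO-KO, with no overlap between any 2 genotypes. Its difference was -0.38 ± 0.041 for WT-KO against WT-WT (adjusted p = 2.49e-06) and -0.51 ± 0.041 for KO-KO against WT-WT (adjusted p = 6.82e-08). Trim71 loss gave -0.17 ± 0.044 with Lin28a intact (adjusted p = 0.0262) and -0.14 ± 0.038 without it (adjusted p = 0.0326). These calls were lost without 1 library in 4 and 7 of 18 fits, for example at -0.13 (adjusted p = 0.107) without KO-WT replicate 3 and -0.11 (adjusted p = 0.108) without WT-KO replicate 4. They were lost too under 7 and 6 of 13 other settings, among them each pair of clones alone and the fit without day 4. Aebp2, an accessory subunit that shares complexes with JARID2, fell by 0.47 ± 0.061 with Lin28a loss in Trim71-intact cells (adjusted p = 1.75e-05) and by 0.21 ± 0.061 where Trim71 was absent (adjusted p = 0.0099). Phf1, the third member of the family of Mtf2 and Phf19, rose by 0.33 ± 0.087 after loss of both (adjusted p = 0.00539).

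In canonical PRC1, Cbx8, which encodes an alternative chromodomain subunit, and Phc2, a polyhomeotic subunit, fell after Lin28a loss. Cbx8 ranged from 4.28 to 5.05 in WT-WT and from 3.50 to 3.79 in WT-KO, a difference of -0.93 ± 0.146 (adjusted p = 0.000104). Phc2 ranged from 8.37 to 8.48 and from 7.73 to 7.91, a difference of -0.60 ± 0.056 (adjusted p = 4.96e-07). Every pair of libraries from the same day showed these directions, in 4 of 4 pairs. In Trim71-null cells the differences were -0.67 and -0.76, with adjusted p-values of 0.00164 and 2.92e-08. Cbx7, another of the chromodomain subunits, gave 0.07 ± 0.046 and -0.06 ± 0.046 in these comparisons. Pcgf2, a partner of RNF2, rose in all 5 comparisons, by between 0.17 and 0.39. Its call for Trim71 loss with Lin28a intact (0.18, adjusted p = 0.0235) was lost without WT-WT replicate 2 or 4 or KO-WT replicate 3 or 4, at adjusted p-values of up to 0.095. It was also lost under 5 of 13 other settings, among them each pair of clones alone and the removal of the GC and length trend (0.13, adjusted p = 0.104).

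Of 16 variant PRC1 genes, Lin28a loss with Trim71 intact called 3 higher and 4 lower, against 20.3% and 22% of all tested genes. Pcgf5, a partner of RNF2 in variant complexes, fell by 0.75 ± 0.087 (adjusted p = 4.86e-06) and Bcor, a corepressor of the PCGF1 complex, by 0.43 ± 0.080 (adjusted p = 0.000461). Auts2 rose by 0.39 ± 0.078 (adjusted p = 0.000799). The largest change of these lists after Trim71 loss with Lin28a intact was that of Mga, which encodes a DNA-binding subunit of the PCGF6 complex. Mga ranged from 11.26 to 11.72 in WT-WT and from 10.44 to 11.03 in KO-WT, a difference of -0.64 ± 0.148 (adjusted p = 0.0161). Its call was lost without WT-WT replicate 3 (-0.48, adjusted p = 0.0691) or KO-WT replicate 3 (-0.48, adjusted p = 0.0685), both of day 4. It was also lost under 5 of 13 other settings, among them each pair of clones alone and the fit without day 4.

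Of 8 genes for the deubiquitinase complex that removes the PRC1 mark, Asxl1 rose by 0.29 ± 0.047 with Lin28a loss in Trim71-intact cells (adjusted p = 0.000143) and by 0.31 ± 0.047 where Trim71 was absent (adjusted p = 7.8e-05). In a list of 8 genes that act against Polycomb, Lin28a loss with Trim71 intact called 3 higher and 1 lower (Ash1l), against 20.3% and 22% of all tested genes. In Trim71-null cells it called 5 higher and 0 lower, against 20.8% and 22%. Loss of both called 4 higher and 1 lower, against 21% and 24.6%. The lower gene was Kdm6a, an H3K27 demethylase, and its call was lost in 4 of 18 fits without 1 library and under 5 of 13 other settings. Kdm6b, the other H3K27 demethylase of the list, was 0.33 ± 0.068 higher in WT-KO than in WT-WT (adjusted p = 0.00113) and 0.54 ± 0.068 higher in KO-KO (adjusted p = 1.22e-05). Kmt2d, a methyltransferase for H3K4, rose by 0.33 ± 0.070 (adjusted p = 0.00146) and 0.52 ± 0.070 (adjusted p = 2.05e-05). In the paired clones E3 and C1 alone, Kdm6b and Kmt2d lost their calls for Lin28a loss with Trim71 intact.

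**Figure D4:**
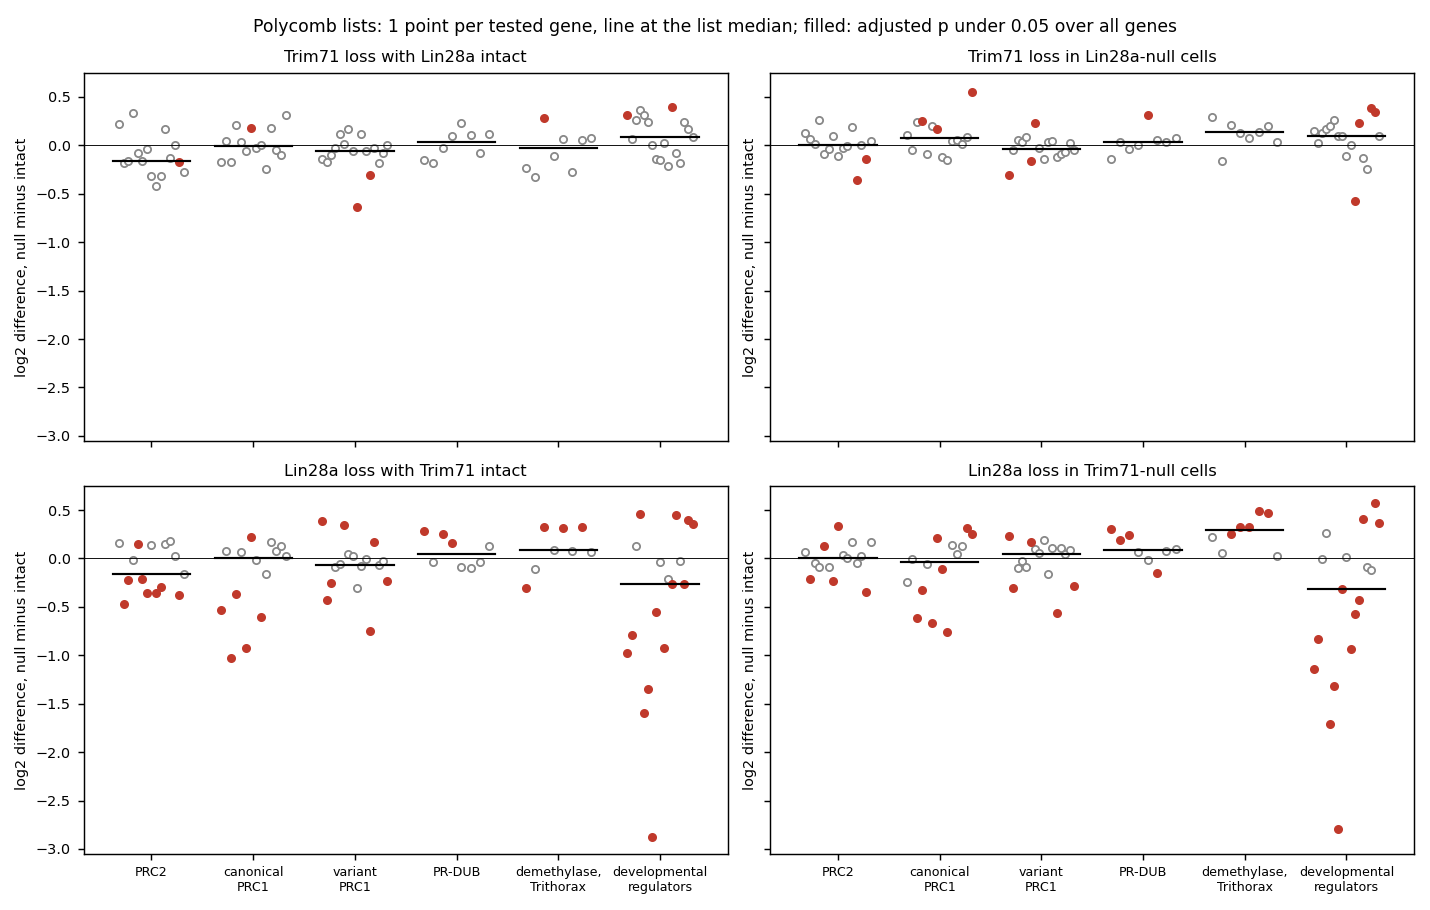
Fitted log2 differences (vertical axis) of the tested genes of 6 lists (horizontal axis: PRC2, canonical PRC1, variant PRC1, the H2A deubiquitinase complex PR-DUB, H3K27 demethylases with Trithorax-group genes, and developmental regulators) in 4 comparisons; lines mark list medians, and filled points had an adjusted p under 0.05. Developmental regulators reach -2.88 after Lin28a loss, while the PRC2 genes stay between -0.47 and 0.34.

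A list of 40 developmental regulators was recalled from general knowledge as Polycomb-repressed in embryonic stem cells. Whether Polycomb represses each of them in these cells, among them Foxd3 and Tbx3, was not measured. Of the 40, 33 were in the table and 17 passed the filter on low values, so the counts describe only the more expressed ones. Lin28a loss called 4 higher and 9 lower with Trim71 intact, and 3 higher and 9 lower in Trim71-null cells, with medians of -0.26 and -0.31. The shares of all tested genes were 20.3% and 22%, and 20.8% and 22%, with medians of -0.01 and 0.00. Trim71 loss called 2 higher and 0 lower with Lin28a intact (4.74% and 6.43% of all genes) and 3 higher and 1 lower without it (4.26% and 4.12%). The lower genes were led by regulators of extra-embryonic and heart lineages. Hand1 ranged from 6.44 to 6.83 in the Lin28a-intact and from 3.49 to 4.23 in the Lin28a-null libraries, a difference of -2.88 ± 0.132 with Trim71 intact (adjusted p = 1.51e-10). Gata4 gave -1.60 ± 0.151 (adjusted p = 6.13e-07) and Gata6 -1.34 ± 0.141 (adjusted p = 1.81e-06), both with no overlap between genotypes. Foxd3 rose by 0.46 ± 0.106 (adjusted p = 0.00254), Pax6 by 0.45 ± 0.092 (adjusted p = 0.00102) and Tbx3 by 0.40 ± 0.098 (adjusted p = 0.0039). In clones E3 and C1 alone the calls of Foxd3, Pax6 and Tbx3 were lost (adjusted p = 0.112, 0.0874 and 0.164). Trim71 loss raised Olig2, a regulator of neural fate, by 0.40 ± 0.061 with Lin28a intact (adjusted p = 0.00125) and by 0.23 ± 0.052 without it (adjusted p = 0.0128). Both Olig2 calls were lost in clones E3 and C1 alone. The former was also lost with the compared genotypes alone, and the latter on the 3 days with all 4 genotypes.

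Markers of other cell types moved with the Lin28a genotype as well. The summed level of 8 trophectoderm markers was 12.06 to 12.48 in WT-WT and 12.06 to 12.37 in KO-WT, against 10.08 to 10.36 in WT-KO and 9.91 to 10.23 in KO-KO, on the log2 scale. Of the 6 tested, Lin28a loss with Trim71 intact called 0 higher, 4 lower and 2 not at all. Loss of both called 1 higher (Eomes) and 4 lower, among them Krt8, Krt18 and Hand1, against 21% and 24.6% of all tested genes. Of 10 primitive endoderm markers the sum was 13.11 to 13.26 in WT-WT and 13.18 to 13.43 in KO-WT, against 11.88 to 12.18 in WT-KO and 12.10 to 12.35 in KO-KO, and all 8 tested members were called lower after Lin28a loss with Trim71 intact. Hand1, Gata4 and Gata6 belong to these lists too. The defining markers Cdx2 and Elf5 of trophectoderm and Sox17 and Foxa2 of primitive endoderm were under the filter on low values. The 5 neural markers in the table went the other way, with sums of 8.92 to 9.26 in WT-WT, 8.74 to 8.91 in KO-WT, 9.32 to 9.68 in WT-KO and 9.35 to 9.43 in KO-KO, and 3 were called higher and 1 lower after Lin28a loss with Trim71 intact. The 4 fibroblast markers in the table summed to 6.93 to 7.18 in WT-WT, 6.92 to 7.05 in KO-WT, 6.45 to 6.61 in WT-KO and 6.54 to 6.81 in KO-KO. Lin28a loss with Trim71 intact called 2 of these 4 lower. Of all tested genes, 20.3% were called higher and 22% lower in that comparison, which applies to each count of this paragraph for Lin28a loss with Trim71 intact.

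Pluripotency markers summed to 15.27 to 15.34 in WT-WT, 15.37 to 15.47 in KO-WT, 15.59 to 15.74 in WT-KO and 15.68 to 15.76 in KO-KO, with 9 of the 10 above the filter on low values (Fut4 was not). Of these 9, Trim71 loss with Lin28a intact called 2 higher (4.74% of all tested genes) and Lin28a loss with Trim71 intact 7 (20.3%). In Trim71-null cells Lin28a loss called 4 higher and 1 lower, against 20.8% and 22%. The 12 proliferation markers summed to 15.35 to 15.46 in WT-WT and 15.22 to 15.42 in WT-KO, against 15.09 to 15.26 in KO-WT and 15.18 to 15.29 in KO-KO. Both Trim71-null groups thus lay below every WT-WT library. Trim71 loss called 2 of the 12 lower with Lin28a intact and 3 without it, against 6.43% and 4.12% of all tested genes. Lin28a loss called 3 higher and 3 lower with Trim71 intact, against 20.3% and 22%. In Trim71-null cells it called 3 higher and 1 lower, against 20.8% and 22%. In these bulk samples, fewer cells of a type and less RNA per cell cannot be told apart, and the part of these marker differences in the Polycomb values was not tested.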

How the data were processed

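Messenger RNA of 19 libraries was read from 1 deposited table of 21685 gene symbols. Per the labels' protocols, RNA was extracted with TRIzol and sequenced paired-end on a HiSeq1500 from TruSeq libraries. CASAVA 1.8, STAR and DESeq2 are named in the submitters' processing notes, with no role; the build, annotation and counting are not given in the sources used here. The deposited values are on a log2 scale, read from the values, which ran from -0.71 to 16.30 with 4126 below 0, and no label states the normalisation. Day effects had been removed before deposit (largest day term of any gene 1.7e-08), and KO-WT replicate 5 was the average of its 4 companions, with gaps of at most 1.5e-08. It was left out. Since read depth is unknown, counting error could not be given.

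A gene entered the test where 4 or more libraries reached log2 of 10, which kept 14988 genes. limma 3.58.1 in R 4.3.3 fitted genotype and harvest day with a trended prior (10 residual degrees of freedom), and p-values were adjusted by Benjamini-Hochberg over all tested genes; a gene was called under 0.05. Day pairs libraries by the labels. A check of the pairing by correlation is void, because day effects had been removed. The fit was run on simulated data with known changes. No result of that run is given here, and the calls do not rest on it. Transcript GC content and length were found for 98.2% of tested genes in GENCODE M21. The 10 genes and all lists were chosen with earlier results of these data known. All 10 are described; from each other list up to 3 genes higher and 3 lower per comparison, by absolute difference among called genes, could be named, and for Ezh2 and Cbx7 the 3 genes of highest Pearson correlation. Ezhip was matched as AU022751. Alternatives were no day term, other filters, other scalings, a GC and length correction, an untrended prior, subsets of clones or days, and leaving out each library.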

Additional observations from a re-analysis of the deposited data

Results flagged for a closer look

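In 7 of 40 groups of a gene in a genotype, 1 library stood apart by Dixon's criterion, where chance flags about 1 in 20 independent groups. The 40 groups share libraries and are not independent, and no share over all tested genes is given. The count is therefore not read as an excess in these genes. WT-WT replicate 3 held the highest value for Suz12 (12.82, next 12.46), Mtf2 (11.99, next 11.60) and Rnf2 (9.94, next 9.79). KO-WT replicate 3, of the same day, held the lowest value for Ezh2 (10.03, next 10.26). KO-KO replicate 4, also of day 4, held the lowest for Mtf2 (11.15, next 11.39). WT-KO replicate 3, of day 3, held the lowest for Eed (10.003, next 10.20), and KO-WT replicate 4, of day 5, the lowest for Phf19 (7.32, next 7.48). Of the 7, then, 5 were libraries of day 4. Deviations within a day offset each other after the removal of day effects, so these 5 are not separate observations.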

How the results depend on the processing

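For Trim71 loss with Lin28a intact, 1674 genes were called with the day term; without that replicate block 4219 were called, with all 19 libraries and no day term 5159, in clones E3 and C1 alone 10, in clones 1 and 1-4 alone 344, on the 3 days with all 4 genotypes 474, without day 4 699 and in the fit of the compared genotypes alone 30. In Lin28a-null cells, 1256 became 2618 without the replicate block, 2957 with all 19 libraries, 153 in clones E3 and C1, 287 in clones 1 and 1-4, 217 on the 3 days and 794 with the compared genotypes alone. Lin28a loss with Trim71 intact called 2323 genes in clones E3 and C1, against 6351. In Trim71-null cells it called 3595 in clones E3 and C1 and 2293 in clones 1 and 1-4, against 6412. Loss of both called 2668 in clones E3 and C1, against 6834. The interaction called 3 genes, 673 without the replicate block, 1293 with all 19 libraries, 1 without day 4 or in clones E3 and C1, and 0 with the GC correction, the untrended prior, clones 1 and 1-4 or the 3 days. Subsets hold fewer libraries, and in clones 1 and 1-4 KO-WT is replicate 4 alone. Dropping the day term left the estimates of the 10 genes as they were and lowered their SEs. For Ezh1 under Trim71 loss with Lin28a intact the SE went from 0.055 to 0.043. Day effects had already been removed, so that fit does not count the degrees of freedom they used. KO-WT replicate 5 adds only the average of its companions. Both settings thus make p-values too small, and the cause of the remaining shifts was not tested.

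Of the 10 Polycomb genes, Trim71 loss with Lin28a intact called 0; it called 1 with 75th percentile or trimmed mean scaling or without day 4, 2 without the replicate block or with the GC correction, and 5 with all 19 libraries. In Lin28a-null cells it called 2, and 0 in either pair of clones or on the 3 days. Lin28a loss with Trim71 intact called 5, 1 in clones E3 and C1 and 2 on the 3 days. In Trim71-null cells it called 3, 1 in clones 1 and 1-4 or on the 3 days and 0 in clones E3 and C1. Loss of both called 5, 1 in clones E3 and C1 and 2 on the 3 days. Leaving out 1 library gave 528 to 1978 and 676 to 1392 genes for Trim71 loss with and without Lin28a, and 0 to 4 for the interaction. It gave 0 to 1 and 1 to 3 of the 10 genes for Trim71 loss, and 1 to 5 and 1 to 3 for Lin28a loss with and without Trim71. The number of all tested genes called moved between settings too, so the counts of the 10 are not read as a result about the set.

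Differences of Polycomb genes that changed sign were uncalled in the day fit. In clones 1 and 1-4, differences that involve KO-WT, the interaction among them, rest on KO-WT replicate 4 alone. For Trim71 loss with Lin28a intact, clones 1 and 1-4 gave Eed 0.0080, Suz12 0.011, Jarid2 0.11, Mtf2 0.014 and Rnf2 0.12, the GC correction gave Jarid2 0.026, Cbx7 -0.046 and Rnf2 0.15, and Rnf2 was 0.052 without day 4. In Lin28a-null cells, clones 1 and 1-4 gave Eed -0.041 and Mtf2 0.084, clones E3 and C1 gave Suz12 -0.023 and Rnf2 -0.0055, and without day 4 Ezh2 was 0.034 and Mtf2 0.10. For Lin28a loss with Trim71 intact, Scml2 was -0.047 in clones E3 and C1 and -0.028 on the 3 days. In Trim71-null cells, Mtf2 was -0.083 with the GC correction, -0.18 in clones 1 and 1-4, -0.024 on the 3 days, -0.052 without day 4 and -0.014 with the compared genotypes alone. Phf19 was 0.18 in clones 1 and 1-4 and 0.0058 on the 3 days, and Eed 0.016 with the GC correction and 0.0077 in clones E3 and C1. For loss of both, Suz12 was 0.031 in clones 1 and 1-4 and 0.041 without day 4, and Cbx7 0.00023 with the compared genotypes alone. For the interaction, clones 1 and 1-4 gave Ezh1 0.026, Eed -0.049, Phf19 0.14 and Rnf2 -0.087, and the GC correction gave Rnf2 -0.12.

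Leaving out 1 library turned further signs. The ranges for Trim71 loss with Lin28a intact were -0.077 to 0.0030 for Jarid2 and -0.093 to 0.020 for Rnf2. In Lin28a-null cells they were -0.096 to 0.033 for Ezh2, -0.050 to 0.050 for Eed, -0.017 to 0.040 for Rnf2 and -0.047 to 0.068 for Mtf2. For Lin28a loss they were -0.031 to 0.12 for Scml2 with Trim71 intact, and in Trim71-null cells -0.10 to 0.00086 for Eed, -0.13 to 0.098 for Mtf2 and -0.12 to 0.014 for Phf19. For loss of both they were -0.15 to 0.017 for Suz12 and -0.053 to 0.00023 for Cbx7, and for the interaction -0.071 to 0.016 for Ezh1 and -0.0089 to 0.10 for Rnf2.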
